A study of Homo sapiens with 4 samples.

Results

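The 10 genes described here are STMN2, GAP43, MAP2, MAPT, TUBB3, NEFL, NEFM, INA, ELAVL4 and SNAP25, which encode neuronal cytoskeleton and growth cone proteins and, for ELAVL4 and SNAP25, a neuronal RNA-binding protein and a synaptic one. They were chosen by name, with earlier results of these data known. The regions counted are those that share at least 1 bp with a window made of the gene's hg19 span and 20 kb on either side. This gave 48 of the 32543 deposited CHD5 peaks and 13 of the 257073 deposited H3K27me3 regions. The start of a gene here means the edge of its span where transcription begins. The spans are known to the nearest kb, so distances from this edge carry an error of about 1 kb. Other starts of the same gene may lie farther from it. The windows of NEFL and NEFM overlap, no region lies in both, and the 9 joined windows cover 1.28 Mb.

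The study used chromatin immunoprecipitation and sequencing in SH-SY5Y, a human neuroblastoma line that takes on neuron-like features in retinoic acid. Cells of every group had 10 uM retinoic acid for 8 days. The groups are FBio-CHD5 cells with the tagged protein captured on streptavidin beads, H3K27me3 precipitated from FBio-CHD5 cells, Fbio-Ctrl cells put through the same bead capture, and input DNA of FBio-CHD5 cells, with 1 library each. Region lists of the CHD5 and H3K27me3 libraries were used, and none of the other libraries was used here, so CHD5 peaks could not be set beside the control capture. The CHD5 measured is the tagged form that the cells were made to express. The labels do not say how it is driven, or whether the cells were a clone. No RNA was measured, so the neuron-like state of the cells could not be checked against these or other markers. With 1 library per group no value has a replicate error and no difference between groups was tested. Depth is unknown, as the lists give no counts of reads.

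Neurons keep their shape with microtubules, built from tubulin and held together by microtubule-associated proteins, and with neurofilaments, which fill and widen the axon. The growth cone is the moving tip of an extending axon, and its proteins are widely used as markers of neurite outgrowth. CHD5 is a chromodomain helicase found mainly in neural tissue, where it works as part of a NuRD-type remodelling complex. H3K27me3 is the histone mark that Polycomb repressive complex 2 writes, typically over CpG-rich starts of silent developmental genes.

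CHD5 was listed at 9 of the 10 genes and H3K27me3 at 3 of them. Both were listed at MAPT and NEFL, CHD5 alone at 7 genes, and H3K27me3 alone at INA. Over all tiles of 100 kb on chromosomes 1 to 22 and X, 47.5% held a CHD5 peak, 37.6% an H3K27me3 region and 11.8% both. The windows differ in width, from 46 kb at NEFM to 351 kb at MAP2. Among tiles of each gene's own window width, the share with a CHD5 peak ran from 30.9% at the width of NEFM to 72.8% at that of MAP2. For H3K27me3 it ran from 28.2% to 61.7%. The count of genes with CHD5 thus lies above these shares, and that of genes with H3K27me3 lies near or below them. Tiles cover intergenic DNA too, and the share among other genes was not analysed here.

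**Figure D1:**
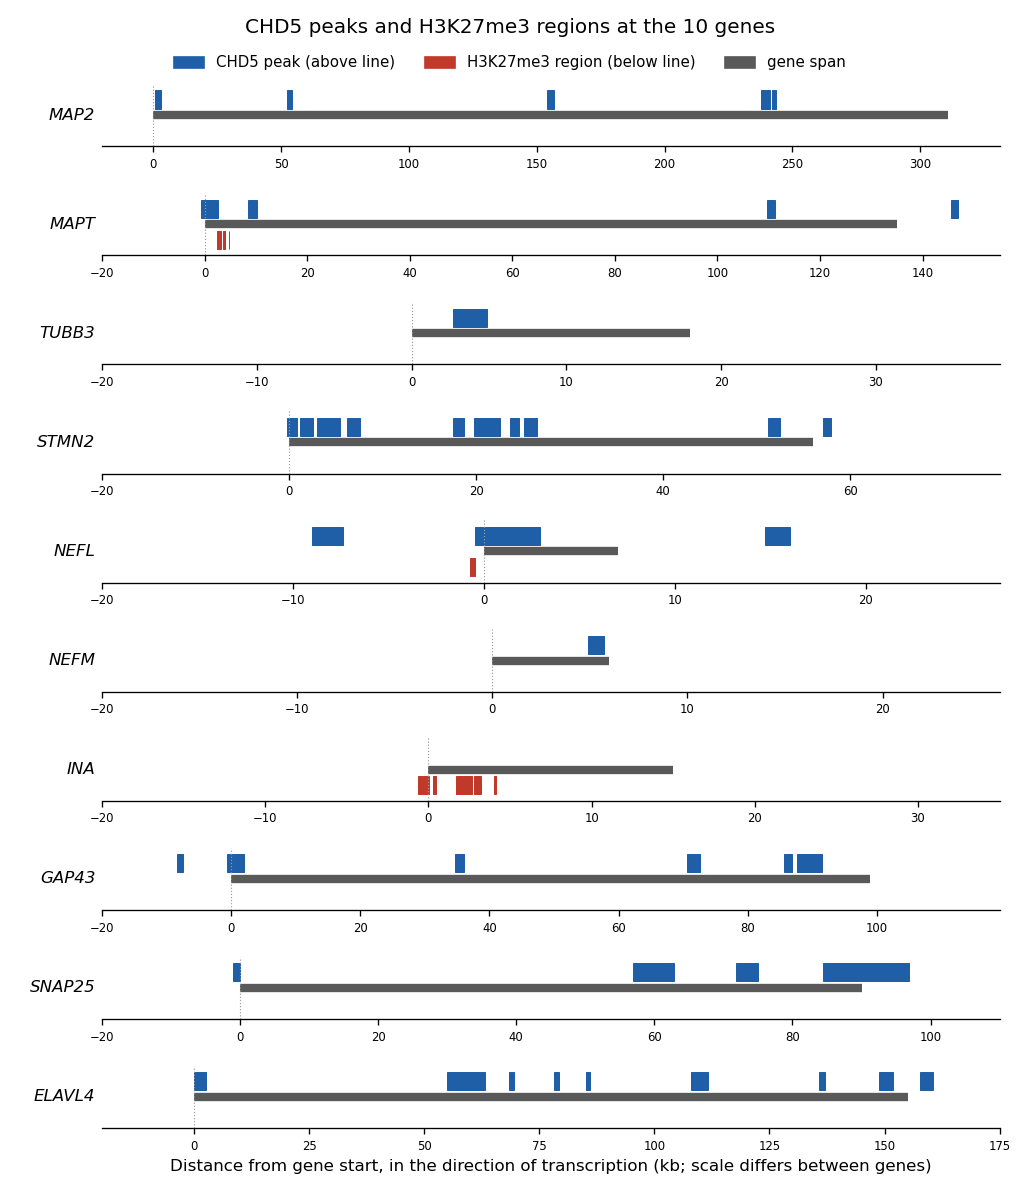
Positions of CHD5 peaks (blue, above each line) and H3K27me3 regions (red, below) at the 10 genes, in kb from the gene start in the direction of transcription, with the span as a grey bar and a separate scale for each gene. CHD5 peaks sit at 9 genes, and INA carries H3K27me3 regions alone.

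A CHD5 peak lay within 1 kb of the start of 7 genes: STMN2, GAP43, MAP2, MAPT, NEFL, ELAVL4 and SNAP25. Of 2-kb tiles over the genome, 4.08% held a CHD5 peak. An H3K27me3 region lay within 1 kb of the start of 2 genes, INA and NEFL, and 8.87% of 2-kb tiles held one. NEFL was thus the 1 gene with both within 1 kb of its start, a combination held by 0.097% of 2-kb tiles. Its H3K27me3 region lay 0.471 to 0.709 kb before the span edge and did not reach it, so rounding of the span could change this call. The tiles are not gene starts, so these shares say nothing of other promoters. The remaining span edges had their nearest CHD5 peak 2.68 kb away at TUBB3, 4.90 kb away at NEFM and 74.8 kb away at INA. TUBB3 has 2 listed starts that were not placed in hg19, so its peak may still lie at one of them.

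Start sequences are shown for GAP43 and ELAVL4, whose starts carried CHD5 without H3K27me3, and for INA, whose start carried H3K27me3 without CHD5. They come from RefSeq and run from 250 bases before to 50 bases after a listed start. RefSeq's table follows build GRCh38.p14 and the region lists follow hg19. The sequences were matched by gene symbol, and no position was converted between the builds. For ELAVL4 and MAP2 the spacing of listed starts was set beside hg19 distances, with equal spacing in both builds assumed. Of the 10 genes, 5 had an entry: GAP43, MAP2, TUBB3, INA and ELAVL4. Capitals mark CG dinucleotides, the sites of CpG methylation. The GAP43 window is chr3:115623260-115623559, the ELAVL4 window, the first of 7 listed, is chr1:50047805-50048104, and the INA window is chr10:103276888-103277187, all on the plus strand.
GAP43: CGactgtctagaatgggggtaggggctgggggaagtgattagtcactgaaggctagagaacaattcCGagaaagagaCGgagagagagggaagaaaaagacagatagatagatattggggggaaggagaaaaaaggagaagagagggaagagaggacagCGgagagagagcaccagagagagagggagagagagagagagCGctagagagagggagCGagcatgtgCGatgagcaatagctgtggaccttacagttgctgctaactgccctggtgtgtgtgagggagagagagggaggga
ELAVL4: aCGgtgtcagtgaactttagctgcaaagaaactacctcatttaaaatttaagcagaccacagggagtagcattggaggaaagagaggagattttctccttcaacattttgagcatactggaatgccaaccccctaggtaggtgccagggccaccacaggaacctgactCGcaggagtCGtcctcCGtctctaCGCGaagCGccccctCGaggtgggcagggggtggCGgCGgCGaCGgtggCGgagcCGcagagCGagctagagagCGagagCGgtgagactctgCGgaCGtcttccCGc
INA: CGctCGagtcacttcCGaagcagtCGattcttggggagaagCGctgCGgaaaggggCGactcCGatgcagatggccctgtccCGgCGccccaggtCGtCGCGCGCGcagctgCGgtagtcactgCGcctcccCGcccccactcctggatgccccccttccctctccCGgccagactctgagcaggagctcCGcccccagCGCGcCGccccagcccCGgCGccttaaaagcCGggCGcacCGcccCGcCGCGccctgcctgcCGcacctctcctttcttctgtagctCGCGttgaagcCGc

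The INA window held 35 CG dinucleotides, a number that 14.1% of the 35116 RefSeq start windows reach or pass. The ELAVL4 window held 20, which 41.2% reach or pass, and the GAP43 window held 7, which 63.2% reach or pass. The median window held 14. GGGCGG was searched on both strands and itself contains a CG. It was present in the INA window and absent from those of GAP43 and ELAVL4, and 45.0% of all windows held it. TATAAA, also searched on both strands, was in none of these windows and in 11.5% of all. The TUBB3 windows differed between themselves, with 9 CG at the first listed start and 47 at the second, a number that 2.41% of windows reach. The other 6 listed starts of ELAVL4 had 3, 9, 6, 8, 1 and 1 CG, all fewer than the first. MAP2 has 3 listed starts in the table, with 7, 10 and 5 CG. The hg19 positions of such inner starts were not used, so a CHD5 peak inside a span may lie at a start that the distances below do not count. At ELAVL4, listed window 1 begins at chr1:50047805 and windows 2 to 5 span chr1:50103659 to 50109882 in GRCh38.p14. With window 1 at the span edge and equal spacing in hg19, windows 2 to 5 fall within its CHD5 at 55.0 to 63.1 kb. Windows 6 and 7 would then meet no listed peak. MAP2 windows 2 and 3, at chr2:209579357 and chr2:209661246, were spaced much like its CHD5 at 154 to 157 and 238 to 243 kb. MAP2 window 1, at chr2:209579082, is close to window 2. If windows 2 and 3 lay at those peaks, none of the 3 would lie at the span edge. Whether any of them does was not determined.

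Among the genes of the microtubule, STMN2 had the densest CHD5. STMN2 encodes stathmin-2, a tubulin-binding protein of the growth cone that regulates microtubule ends. Its window, on chromosome 8 around the span from 80.523 to 80.579 Mb, held 10 CHD5 peaks, or 10.4 per 100 kb. The chromosome as a whole had 1.01 per 100 kb, and 0.221% of tiles of that width held at least as many peaks. The peaks fell into 2 runs and 2 single peaks. The first run spanned chr8:80522771-80530606, from 0.229 kb before the start to 7.61 kb past it, with 4 peaks that scored 115, 122, 305 and 80.05. The score is the authors' own value for each peak, ranks peaks within 1 list, and had a median of 117 over all CHD5 peaks. The peak at the start itself, 1066 bp wide, ranked above 49.2% of the list, whereas the third peak of the run ranked above 85.0%. The second run, 17.6 to 26.6 kb into the gene, again had 4 peaks, with scores of 53.45, 293, 52.1 and 103. The highest peak of the second run ranked above 84.0% of the list, and the remaining peaks of both runs ranked no higher than the one of score 122, which was above 52.0%. A peak of score 83.2 lay 51.3 kb into the gene and one of 66.4 lay just past its end. No H3K27me3 region was in the window, and the nearest was 53.5 kb before the start.

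MAP2 encodes the microtubule-associated protein of dendrites and is the longest of the genes, with a span of 311 kb on chromosome 2. It held 7 CHD5 peaks, or 1.99 per 100 kb, against 1.25 per 100 kb over the chromosome. At least as many peaks were found in 20.7% of tiles of that width, so the number is not unusual for so wide a window. The peaks lay at 4 places. That at the start, chr2:210288805-210290967, scored 215, and a single peak 52.5 kb into the gene scored 206. A pair 154 to 157 kb into the gene scored 119 and 140.5. A run of 3 followed at 238 to 243 kb, with scores of 67.5, 297 and 64.9, in which the first and second peaks were separated by 1 bp. H3K27me3 was absent from the window, and its nearest region was 119 kb before the gene.

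MAPT encodes tau, the microtubule-associated protein of axons, and was a gene where the lists met. Its CHD5 peak at the start, chr17:43970360-43973712, was 3353 bp wide and scored 264, above 81.2% of the list. A group of 5 H3K27me3 regions began inside the last part of this peak and ran on into the gene, from 2.49 to 4.84 kb past the start. They joined into a domain of 2346 bp at chr17:43973492-43975837, wider than 57.1% of the H3K27me3 domains obtained when regions up to 3 kb apart are joined. The first region, of 132 bp and score 51.8, lay entirely within the CHD5 peak. The second, of 269 bp, had the highest H3K27me3 score of the gene, 138, and shared 46 bp with the peak. The other 3 scored 59.9, 97.4 and 56.3 and lay 0.273 to 1.99 kb beyond the peak. In all 178 bp carried both. The next CHD5 peak, with a score of 97.5, lay 3.67 kb beyond the last H3K27me3 region. CHD5 was also listed 109.7 kb into the gene with a score of 75.4, and past its end with a score of 70.25. These peaks ranked above 25.8% and 21.2% of the list. Chromosome 17 was rich in CHD5, at 1.99 per 100 kb, and the 2.29 per 100 kb of the MAPT window exceeded it little.

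TUBB3 encodes the beta-tubulin isotype used as a marker of young neurons. Its window on chromosome 16 held 1 CHD5 peak, chr16:89987679-89989850, which scored 183, above 69.1% of the list. It began 2.68 kb past the first edge of the span and ended at 4.85 kb. Whether it covers a listed start of TUBB3 was not determined. Tiles of that width held a peak in 35.5% of cases, so a single peak here is a common finding. MC1R and DEF8 are the protein-coding neighbours of TUBB3 in RefSeq's order. The next CHD5 peaks on either side were 74.9 and 57.8 kb away, and no H3K27me3 region was listed within 155 kb.

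The neurofilament genes differed in which list reached them. NEFL and NEFM, which encode the light and medium chains, are neighbours on chromosome 8 with no protein-coding gene between them in RefSeq. INA, which encodes alpha-internexin, a partner subunit of neurofilaments, lies on chromosome 10.

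NEFL had 3 CHD5 peaks in a window of 47 kb, or 6.38 per 100 kb, and 5.10% of tiles of that width held at least as many. The strongest, chr8:24812061-24815477, covered the start and about 2.94 kb of the gene, which is 7 kb long. It was 3417 bp wide and scored 324, above 86.4% of the list. A single H3K27me3 region of 239 bp, chr8:24815471-24815709, abutted its upstream edge and shared 7 bp with it. That region scored 114, above 66.2% of the H3K27me3 list, and stood alone: the next regions lay 389 and 478 kb from the gene. The other CHD5 peaks were at 7.38 to 9.03 kb before the start, with a score of 166, and 14.7 kb past it, between the 2 genes, with a score of 103.

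NEFM had 1 CHD5 peak, chr8:24775902-24776715, near the end of the gene. It was the narrowest of the 48 peaks, at 814 bp, and its score of 55.9 exceeded 7.11% of the list. Of tiles 46 kb wide, 30.9% held a peak. The nearest H3K27me3 region was the one at the start of NEFL, 38.5 kb from the end of NEFM. Near NEFM, peaks with scores of 63.35 and 103 lay 21.3 and 21.97 kb from the span, just outside the limit, and the second of them is the peak between the 2 genes that counts for NEFL. At ELAVL4 a peak of score 130.0 lay 22.1 kb before the span. The counted peaks farthest from a span were that between the genes, 7.70 kb from NEFL, one 7.38 kb before NEFL, one 7.49 kb before GAP43 and one 10.5 kb past MAPT.

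INA had no CHD5 peak in its window, and the nearest on either side were 82.0 and 59.8 kb from the span. Its start instead carried 7 H3K27me3 regions within 4.75 kb, chr10:105035379-105040125, from 0.621 kb before the start to 4.13 kb past it. As a joined domain this is wider than 72.5% of all domains. The first region, 633 bp wide with a score of 160.3, passed the rounded span edge by 0.011 kb. That is less than the rounding, so whether it covers the start is unknown. A small one followed with a score of 58.85. A close group of 4 between 1.67 and 3.25 kb past the start scored 96.8, 168, 153 and 253, and the last region scored 57.1. The highest of these ranked above 89.1% of the H3K27me3 list, in which the median was 84.6. No other H3K27me3 region was found within 500 kb of the gene, and the next were 885 kb before and 1242 kb past it. CHD5 by contrast was not scarce in the surroundings, with 21 peaks within 500 kb. PCGF6, which encodes a Polycomb-group RING finger protein, is the next protein-coding gene after INA in RefSeq's order.

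**Figure D2:**
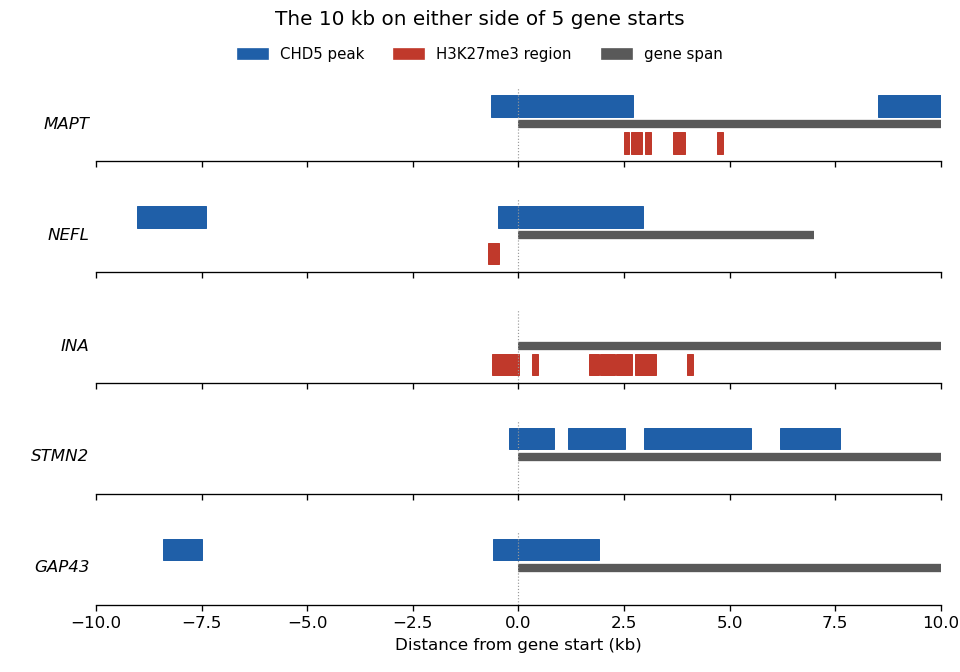
CHD5 peaks (blue) and H3K27me3 regions (red) in the 10 kb on either side of 5 gene starts, in kb from the start in the direction of transcription, with the span in grey. The lists meet over 178 bp at MAPT and 7 bp at NEFL, INA shows H3K27me3 alone, and STMN2 and GAP43 show CHD5 alone.

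Over the 10 genes, 2 of the 48 CHD5 peaks shared bases with H3K27me3, those at the starts of MAPT and NEFL, or 4.17%. Of all CHD5 peaks, 2.19% did. The share rests on 2 peaks, and no test was made. In both genes the shared stretch was at 1 edge of the CHD5 peak. It was the inner edge, in the gene body, at MAPT, and the outer edge, upstream of the gene, at NEFL. The other 46 CHD5 peaks had their nearest H3K27me3 region from 3.67 kb away at MAPT to 597 kb away at SNAP25.

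GAP43 and SNAP25, proteins of the growing and the mature axon terminal, had CHD5 both at the start and deep in the gene. The same held at STMN2, MAP2, MAPT and ELAVL4. GAP43 encodes a membrane phosphoprotein of the growth cone. Its window on chromosome 3 held 6 peaks, or 4.32 per 100 kb, against 1.09 over the chromosome, and 5.55% of tiles of that width held at least as many. The peak at the start, chr3:115341395-115343913, scored 353, above 88.3% of the list, and was the highest of the 7 peaks at starts. Peaks 70.6 and 87.7 kb into the gene scored still higher, at 361 and 452. The last of these, chr3:115429656-115433480, was 3825 bp wide and ranked above 92.7% of the list. Weaker peaks lay 7.49 kb before the start, with a score of 56.7, and at 34.7 and 85.6 kb into the gene, with scores of 111 and 76.7. No H3K27me3 region was within 73.0 kb of the span.

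SNAP25 encodes a SNARE protein of the plasma membrane that drives synaptic vesicle fusion. It had the strongest and widest CHD5 peaks among the genes, and they lay in the second part of the gene and across its end, not at its start. The peak at chr20:10283401-10293718 was 10318 bp wide, ran across the end of the span and scored 1287, above 99.7% of the list. It was followed after 26 bp by a peak of 2171 bp with a score of 261, and the pair made a run of 12.5 kb. A peak of 4801 bp, chr20:10255961-10260761, scored 1173, and one at 71.8 kb into the gene scored 785. These rank above 99.5% and 98.2% of the list. A small peak with a score of 74.0 followed the first of them after 20 bp. The peak at the start, by contrast, was 921 bp wide, ended about 0.047 kb before the edge of the span and scored 52.6, above 3.22% of the list. The 6 peaks covered 17.4% of the window, the highest share of the 10 genes. H3K27me3 was remote, with the nearest region 503 kb before the gene and the next one past it 2032 kb away.

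ELAVL4 encodes HuD, a neuronal RNA-binding protein that stabilises messenger RNAs, that of GAP43 among them. It held 10 CHD5 peaks over a span of 155 kb on chromosome 1, or 5.13 per 100 kb against 1.41 over the chromosome. At least as many were found in 2.42% of tiles of that width. The peak at the start, chr1:50512985-50515634, scored 179.6. The widest stretch of CHD5 lay 55.0 to 63.1 kb into the gene, where peaks of 3706 and 4445 bp, scoring 371 and 354, were separated by 1 bp. The highest score, 418, belonged to a peak of 3733 bp 108 kb into the gene. The peak nearest to the end of the span, 2.66 kb past it, was 2873 bp wide and scored 204. Between these lay 4 weak peaks with scores from 53.3 to 86.1 and one of 282 near the end. The span held no H3K27me3, and the nearest region was 168 kb before it. Within 500 kb, but outside the window, 27 H3K27me3 regions were listed, the most of the 10 genes, so the surroundings were not free of the mark.

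**Figure D3:**
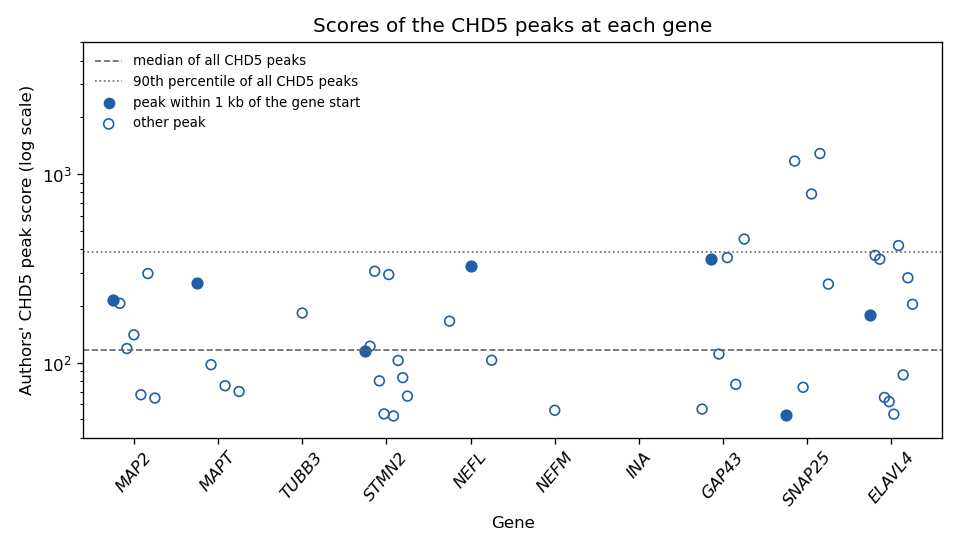
The authors' score of each CHD5 peak at the 10 genes, on a log axis, in order of position along the gene, with filled points for peaks within 1 kb of the start and lines for the median (117) and the 90th percentile (385) of all 32543 CHD5 peaks. The 3 highest points, from 785 to 1287, belong to SNAP25, while its start peak is at 52.6.

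The CHD5 peaks at these genes scored close to the list as a whole. Their median score was 120.5, against 117 for the other 32495 peaks, and 25 of the 48 were above the median of the list. Their median width was 1566.5 bp, against 1647 bp. The 5 peaks at or above the 90th percentile of the list, a score of 385, belonged to SNAP25 with 3, GAP43 with 1 and ELAVL4 with 1. By position, 33 peaks lay inside a span, 7 at a start, 5 past an end, 2 upstream and 1 across an end. The 7 peaks at starts had a median score of 215 and ran from 52.6 at SNAP25 and 115 at STMN2 to 353 at GAP43. The other 41 had a median of 111. Only 1 span edge per gene counts as a start here. Peaks at other listed starts, possible at ELAVL4, MAP2 and TUBB3, would be among the 41. At MAPT and NEFL the start peak was the highest of its gene. At STMN2, GAP43, MAP2, ELAVL4 and SNAP25 an inner peak or one across the end scored higher. These are values of 1 library, and no test of the difference was made.

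The number of CHD5 peaks per Mb was above that of the whole list, a difference of 1 library that was not tested. The joined windows held 37.4 CHD5 peaks per Mb, against 18.2 in their joined surroundings within 500 kb, 12.7 on the 8 chromosomes of the genes and 10.7 over chromosomes 1 to 22 and X. CHD5 covered 8.01% of the windows, against 2.13% of those chromosomes. Density was above that of the gene's own chromosome at 9 genes, INA being the exception. These are the same 9 genes that had a CHD5 peak. At NEFM and TUBB3 a single peak sufficed, and 30.9% and 35.5% of tiles of their widths held a peak. Set beside the surroundings, which here means the 500 kb on either side of the span without the window, it was above at 7 genes. At STMN2 it was 10.4 against 2.29 per 100 kb, at NEFL 6.38 against 2.71, at ELAVL4 5.13 against 1.88, at SNAP25 4.62 against 1.25 and at GAP43 4.32 against 1.56. The gap was smaller at MAP2, with 1.99 against 0.833, and at MAPT, with 2.29 against 1.77. TUBB3 with 1.72 against 1.98, NEFM with 2.17 against 2.81 and INA with 0 against 2.19 were lower than their surroundings. The order of the genes has no error with 1 library, and the counts behind it are small.

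H3K27me3 was sparser in the windows than on the chromosomes. Against the surroundings the sign depended on INA and on MAPT. The windows held 10.1 regions per Mb, against 67.3 on the chromosomes of the genes and 84.5 over chromosomes 1 to 22 and X. Without INA the value was 4.89, and without MAPT it was 7.22. The mark covered 0.281% of the windows, against 2.86% of those chromosomes. The joined surroundings of all 10 genes held 8.80 regions per Mb. This lies between the values of the windows with and without INA, and between those with and without MAPT. At INA the window had 12.7 per 100 kb against 0 in its surroundings, at MAPT 2.86 against 1.56 and at NEFL 2.13 against 0.208. The other 7 windows had 0, against values from 0 at SNAP25 to 2.81 at ELAVL4 in their surroundings. H3K27me3 lies in clusters, so that a mean per Mb is set by few places: the median tile held 0 regions at 9 of the 10 window widths. The 13 regions belonged to 3 domains, at INA with 4747 bp, MAPT with 2346 bp and NEFL with 239 bp. All 3 domains lay at or within 5 kb of a gene start. Scores of the 13 regions had a median of 97.4, and those of the other 257060 a median of 84.6, with median widths of 243 and 238 bp. At INA the density also exceeded the 3.92 per 100 kb of its chromosome, and 15.9% of tiles of that width held at least as many regions.

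**Figure D4:**
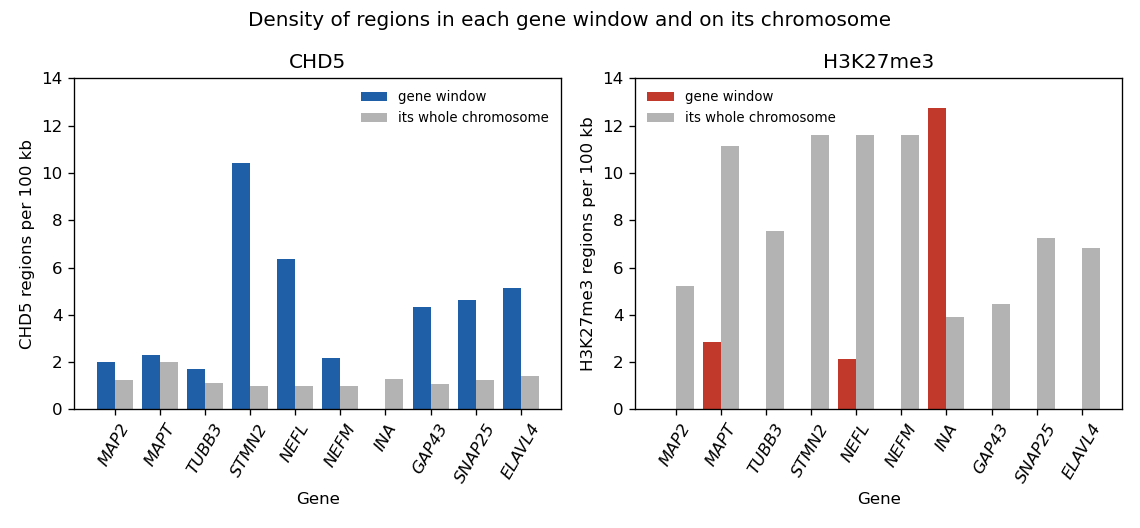
Regions per 100 kb in each gene window (coloured) and over its whole chromosome (grey), for CHD5 on the left and H3K27me3 on the right, counted in 1 library each and without error bars. CHD5 was denser than on the chromosome at the 9 genes with a peak, from 1.72 at TUBB3 to 10.4 at STMN2. At TUBB3 and NEFM a single peak sufficed. H3K27me3 was denser at INA alone among the 10.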

How the data were processed

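Chromatin immunoprecipitation libraries of SH-SY5Y cells were deposited as region lists. Both lists used are MACS peaks of 1 library each, per the file headers. The submitters' processing notes give hg19 as the build. The score of each region was made by the authors' peak caller and deposited with the list. Its scale is not stated and its lowest value is 50. For the MACS settings, background library and aligner: not given in the sources used here. A broad mark such as H3K27me3 can be split by a narrow peak caller, so regions up to 3 kb apart were also joined. Groups came from sample titles. Gene spans were taken to the nearest kb. Regions sharing at least 1 bp with a span and its 20-kb flanks were counted, checked with bedtools 2.31.1 (48 and 13) and tested on simulated data. Tiles started at position 1 and ran to the last region of either list. All genes are named. Where a gene had over 4 CHD5 peaks, the rule named the strongest, the widest and those nearest its start and end, and other peaks are given beside them. The genes and lists were chosen with earlier results of these data known. Gene orientation was set by hand and, for 5 genes, checked against RefSeq (GRCh38.p14). Other neuronal genes could not be placed without an hg19 annotation. Alternatives covered flanks, score limits, tiles and joining. Analysis used Python 3.11.15 (pandas 2.3.3, numpy 2.4.6, scipy 1.17.1) with figures in matplotlib 3.10.9.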

Additional observations from a re-analysis of the deposited data

How the results depend on the processing

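The number of genes with CHD5 ran from 8 to 10 over all alternatives to the flank, the score limit and the rule for overlap, and the 9 genes with CHD5 needed no flank. Other results moved as follows. Counts moved by over 1.5 times, and densities and tile shares fell outside a 95% interval of the main value. For 100-kb tiles with CHD5 that interval was 46.9% to 48.1%, so small shifts counted as moved. With flanks of 100 kb, 6 genes had H3K27me3, 6 had both lists and the windows held 84 CHD5 peaks. With no flank, 1 gene, MAPT, had both. Scores at or above the median of each list left 25 CHD5 peaks and 8 H3K27me3 regions. Without INA, H3K27me3 density was 4.89 per Mb. Regions left unjoined counted 13 instead of 3 domains. The share of tiles with CHD5 was 32.4% for tiles of 50 kb, 62.7% for 200 kb, 49.8% for tiles within 1 Mb of a region, 54.9% on the chromosomes of the genes and 31.3% with the higher scores. For H3K27me3 these were 29.0%, 49.3%, 39.4%, 32.3% and 25.7%. Distances from the start were chosen after the data were examined. CHD5 was at 5 starts when the edge itself had to be covered, at 8 within 3 kb and at 9 within 5 kb. H3K27me3 was at 1 start, INA, when the edge had to be covered, by 0.011 kb, which is less than the rounding of the spans. Depth is unknown and limits every absence. No paired analysis was possible because each group has 1 library.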
